A study of Homo sapiens with 27 samples.

Results

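The ERK pathway feedback genes are 9 genes whose transcription follows ERK activity and most of whose products act back on the same pathway: DUSP4, DUSP6, SPRY2, SPRY4, SPRED1, SPRED2, ETV4, ETV5 and PHLDA1. They were chosen by symbol, 1 row each, from the 61533 genes of the deposited count table. RNA was sequenced from 92.1 cells, a GNAQ mutant uveal melanoma (UM) line, kept for up to 21 days in medium with VS-4718, an inhibitor of focal adhesion kinase (FAKi), at 100 nM or with DMSO alone, both renewed every 72 h. The 27 libraries form 9 groups of 3, made up of the DMSO cells at the start (day 0) and the cells of each arm at days 3, 7, 14 and 21. Every group is the same line, so each result describes 1 genetic background. The methods describe both triplicate plating and repeated experiments, and the labels do not say which of these a replicate number marks, so p-values measure the spread between these libraries, which may be partly technical.

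Uveal melanoma is usually started by an active mutant of the G protein alpha subunit encoded by GNAQ or GNA11, which signals through phospholipase C and protein kinase C to RAS, RAF, MEK and ERK, and in parallel through FAK to YAP. ERK in the nucleus drives a rapid set of genes that restrain it. The DUSP proteins are phosphatases that remove the activating phosphates from ERK, the Sprouty and SPRED proteins act at the level of RAS and RAF, ETV4 and ETV5 are ETS transcription factors of the PEA3 group that carry the signal into further genes, and PHLDA1 is a pleckstrin homology domain protein induced by the pathway. Their mRNA levels are widely read as a record of ERK output, and all but the SPRED genes belong to a widely used MAPK activity score that also holds CCND1, EPHA2 and EPHA4.

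Total counts per library lay between 12161994 and 43651551, with a median of 24759579, and all 9 members passed the filter of at least 20 counts in every comparison. The smallest count of any member in any library was 208, for ETV4. Of 8 melanocyte lineage markers, all averaged over 1 CPM (counts scaled to the library total, with TMM factors), from DCT at 13.2 CPM to TYRP1 at 5553 CPM. None of 4 epithelial or 3 endothelial markers did, KRT5 had no count, and of 4 leukocyte markers the exception was the lysosomal gene CD68. Of 5 fibroblast markers, COL1A1 averaged 5.73 CPM and LUM 5.08 CPM. The marker sums that follow are CPM without TMM factors. The summed melanocyte markers were higher with FAKi from day 7, at 12442 to 13958 CPM against 10914 to 11739 CPM with DMSO at that day and 12284 to 12738 CPM against 8631 to 9585 CPM at day 14. At day 21 these sums were 16070 to 17091 CPM and 10442 to 14894 CPM. PMEL and TYRP1, which averaged 4934 and 5553 CPM with TMM factors, made up most of each sum. Of the single melanocyte markers, PMEL and TYR passed the test as higher at day 14 and TYR and DCT at day 21. PAX3 was lower at day 14 (log2 fold change -0.37, edgeR adjusted p = 0.0183). None of these markers passed at day 7, and MITF, SOX10, MLANA and TYRP1 passed on no day. The summed leukocyte markers, nearly all of them CD68, were 26.8 to 28.6 CPM with FAKi against 51.3 to 75.1 CPM with DMSO at day 21 and 42.0 to 79.1 CPM against 89.3 to 102 CPM at day 7, while PTPRC, CD3E and LYZ had 10, 8 and 14 counts over all libraries. The part of these shifts in the results below was not tested, and in bulk RNA a change in the share of cells that express a gene and a change per cell cannot be told apart.

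In 6 of 27 libraries the expression profile lay nearer on average to another group than to the group of the label. Over 16982 genes, the library labelled FAKi day 7 replicate 1 lay 0.215 from FAKi day 14 replicate 1 (root mean square difference of log2 CPM), a gap under the lowest between any replicates of 1 group, 0.228. Its mean distance was 0.724 to its own group and 0.33 to FAKi day 14. The library labelled DMSO day 3 replicate 1 lay 0.691 from its own group and 0.324 from DMSO day 0, and DMSO day 21 replicate 3 lay 0.744 from its own group and 0.467 from DMSO day 3. The others were DMSO day 3 replicate 3, at 0.64 from its own group and 0.52 from DMSO day 21, and FAKi day 7 replicates 2 and 3, at 0.562 and 0.578 from their own group and 0.387 and 0.456 from DMSO day 7. Each of these has the same group label as a library among the first 3. The median distance within groups was 0.397. The first 3, which had the largest distances from their own groups, are called the libraries that stand apart, a choice made after the distances were seen. All libraries stayed in under their labels, and results that rest on those 3 are given with and without them.

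The sequences just before the transcription starts of 3 members that fell with FAKi over the 4 days are shown here, since these genes moved together and motifs for ERK-regulated factors can be looked for in them. They come from the RefSeq promoter table of build GRCh38.p14, in which 6 of the 9 members have an entry, and each is the 250 bases before the start, read 5′ to 3′ on the minus strand. DUSP6 is at chr12:89352502-89352751, SPRY4 at chr5:142324248-142324497 and PHLDA1 at chr12:76031777-76032026. The DUSP6 bases lie directly before the counted transcript. Those of SPRY4 and PHLDA1 belong to starts upstream of the counted transcripts, which begin at chr5:142315790 and chr12:76031604. Capitals mark CCGGAA, the only form of the ETS core that was searched, on either strand.
DUSP6: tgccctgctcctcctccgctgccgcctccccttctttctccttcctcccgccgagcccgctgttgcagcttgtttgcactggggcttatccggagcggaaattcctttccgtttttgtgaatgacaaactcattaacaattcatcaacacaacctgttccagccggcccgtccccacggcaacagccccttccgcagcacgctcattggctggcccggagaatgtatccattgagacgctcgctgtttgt
SPRY4: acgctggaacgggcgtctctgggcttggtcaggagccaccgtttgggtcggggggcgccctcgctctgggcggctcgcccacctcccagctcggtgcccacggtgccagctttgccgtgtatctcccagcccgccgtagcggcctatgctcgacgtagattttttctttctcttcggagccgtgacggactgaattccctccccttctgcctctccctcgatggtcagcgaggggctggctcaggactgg
PHLDA1: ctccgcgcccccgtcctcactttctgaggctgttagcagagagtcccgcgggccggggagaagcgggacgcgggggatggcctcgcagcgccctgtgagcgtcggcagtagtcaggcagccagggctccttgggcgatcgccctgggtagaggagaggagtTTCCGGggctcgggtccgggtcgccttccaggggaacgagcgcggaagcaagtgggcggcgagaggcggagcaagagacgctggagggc

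Windows of 300 bases, from 250 before to 50 after the start, were searched on both strands for 4 motifs. These were the octamers TGAATGAA and TGAATGGA of the repressor CIC, the ETS form CCGGAA, the AP-1 site TGANTCA and the cyclic AMP element TGACGTCA. Other octamers that CIC binds and other forms of the ETS core were not searched. These windows may therefore hold CIC or ETS sites of another form. The PHLDA1 window held 1 CCGGAA, beginning at position -89 with the start base as 0, in the orientation opposite to the gene. One of 3 SPRY2 windows held 1 as well, at -142, and 17.2% of the 35116 windows of this length did. One of 2 SPRED2 windows held 2 AP-1 sites, at -6 and 34, against 7.71% of all windows with any. Neither of the CIC octamers searched (2.63% of all windows) nor the cyclic AMP element (1.85%) was in any of the 9 windows of the members. The matches did not overlap each other, and none of these counts describes binding.

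The members differed widely in level before treatment. Per kilobase of the counted transcript, the day 0 level was 62.2 ± 2.67 CPM (SD, n = 3) for DUSP4 and 60.2 ± 3.05 for ETV4, whose replicates overlapped. PHLDA1 followed at 52.6 ± 1.08 and ETV5 at 34.5 ± 0.723. SPRY4 at 28.5 ± 2.39 and SPRY2 at 25.9 ± 1.39 CPM per kilobase overlapped, as did SPRED2 at 13.9 ± 0.696 and DUSP6 at 13.7 ± 1.19. SPRED1 was the lowest at 4.20 ± 0.246. These levels depend on the transcript HOMER kept for each gene. For 8 members that was a protein coding transcript, and for SPRY4 it was a single exon of 5348 bases at chr5:142310442-142315790 that GENCODE 44 calls a retained intron transcript. The level of SPRY4 per kilobase is therefore a level over that exon.

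For 24.1% of the exon bases of DUSP6 GENCODE 44 lists an exon of another gene on the opposite strand, and for 9.63% of those of PHLDA1 it lists the antisense gene PHLDA1-AS1. For ETV4 the share was 2.47%, and ETV5 shares 4.02% of its exon bases with DGKG on the same strand. The counting command in the file header has no strand option, so reads of these genes and their partners cannot be told apart there.

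**Figure D1:**
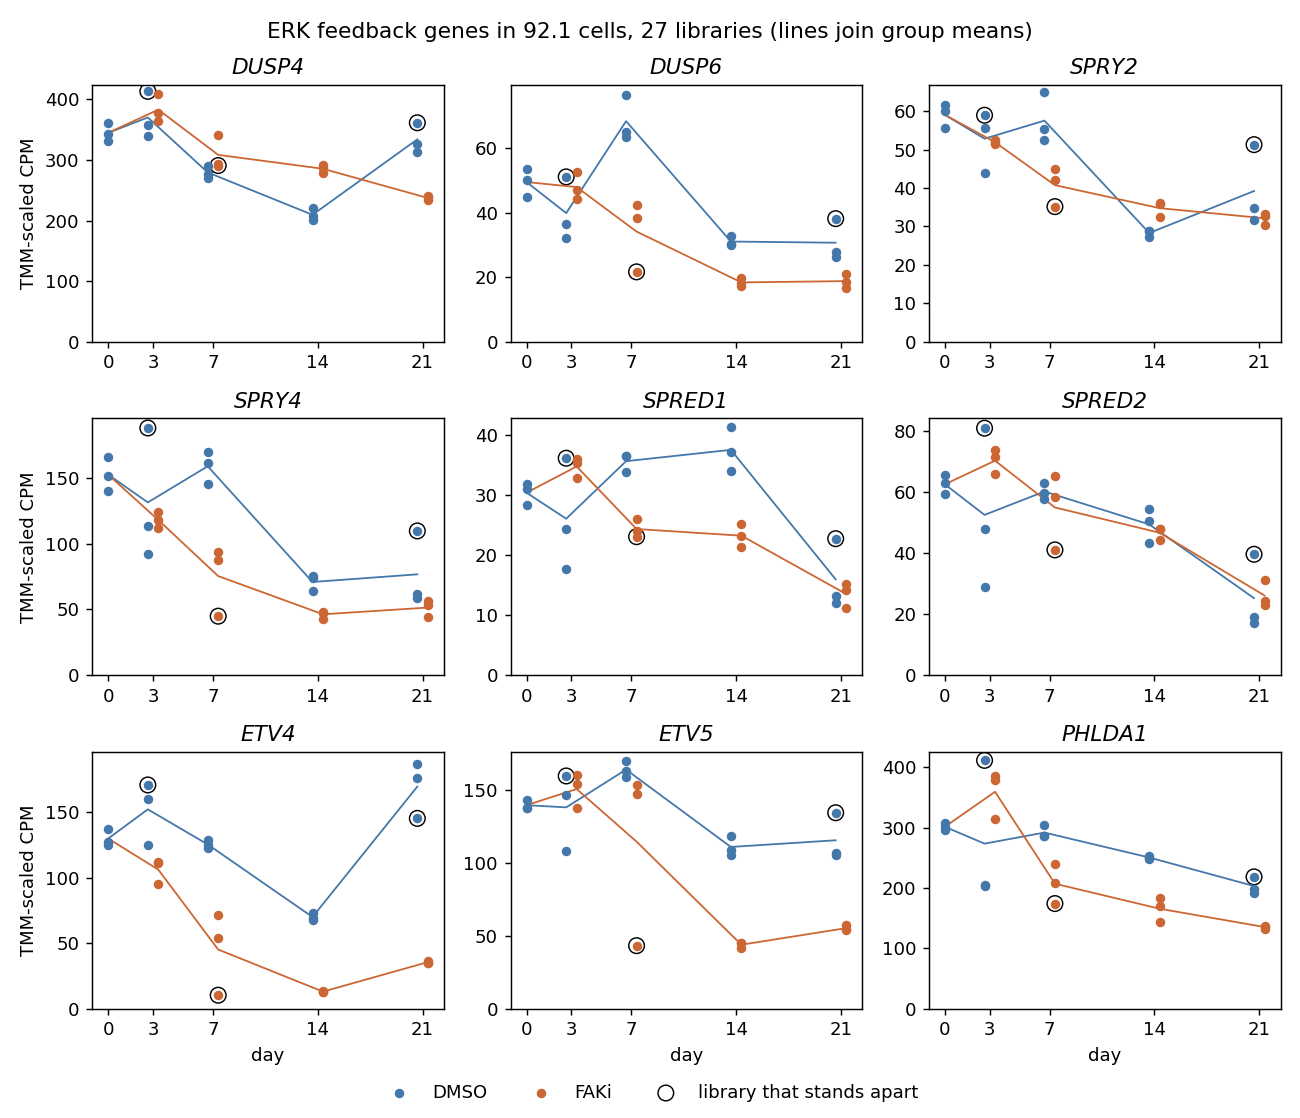
TMM-scaled CPM of each feedback gene in each of the 27 libraries by day, with blue points for DMSO, orange points for FAKi, rings around the 3 libraries that stand apart and lines through the group means (the FAKi line starts from the DMSO day 0 mean). ETV4 fell from between 125 and 137 CPM at day 0 to between 12.6 and 13.5 CPM in FAKi at day 14, while DMSO libraries of that day held 67.5 to 73.1 CPM.

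The time course was made to follow cells under sustained FAK inhibition, and for the feedback genes it asks whether their mRNAs changed with the drug and from which day. ETV4 was the member that changed most. Its FAKi libraries lay below the DMSO libraries on each of the 4 days, and averaged over the days its log2 fold change was -1.66 (SE 0.16, adjusted p = 2.27e-07, edgeR quasi-likelihood test). DUSP6, SPRY4, ETV5 and PHLDA1 were also lower over the 4 days, by much less. DUSP4, SPRY2, SPRED1 and SPRED2 did not pass the test, and none of the 9 rose.

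In counts, 5 of 9 members were lower at an adjusted p of at most 0.05 in the mean effect over days, and 8.7% of the 27897 genes tested were lower by that rule. With a log2 fold change under -1 as well, the threshold of the study, only ETV4 passed, against 1.01% of all genes. Without the 3 libraries that stand apart, DUSP6, SPRY4, ETV4, ETV5 and PHLDA1 remained lower, with log2 fold changes of -0.37, -0.35, -1.54, -0.53 and -0.16, and SPRED2 rose by 0.36 (adjusted p = 0.00042), in a fit where 16% of all genes were lower and 16.9% higher.

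By day, no member passed at day 3 or day 7, 7 passed at day 14 and 3 at day 21. At day 3, 0 of 22846 genes passed in all (0%), with 5442 at an unadjusted p under 0.05, of which 1 was a member, and DESeq2 also called 0 members. At day 7, 6 genes of 22299 passed (0.0269%) and none was a member. Of all genes 8.77% had an unadjusted p under 0.05 at that day. Among the 9 members 6 did, and 8 of 9 estimates were below 0. Their median log2 fold change at day 7 was -0.53, against 0.01 over all genes tested. DESeq2 called DUSP6, SPRY4 and SPRED1 at that day, and edgeR without FAKi day 7 replicate 1 called those 3 and ETV4, all lower, as were 1.44% of genes in that fit.

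At day 14, 6 members were lower, where 6.1% of 23443 genes were, and 1 was higher, where 6.35% of genes were. With the fold threshold, ETV4 and ETV5 passed, against 1.04% of all genes. At day 21, 3 members were lower, where 6.32% of 23212 genes were, and ETV4 and ETV5 passed the fold threshold, against 2.71%. The median log2 fold change of the 9 was -0.62 at day 14 and -0.53 at day 21, against medians over all genes of -0.01 and 0.01.

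At day 21 same-numbered FAKi and DMSO libraries deviated together from their group means, with r of 0.443, 0.128 and 0.658 for replicates 1, 2 and 3. The DMSO library of replicate 3 is among those that stand apart. Libraries of different numbers were not compared, so these values do not show that the numbers mark pairs. With the replicate block, 6 members were lower at day 21, the 3 above and DUSP4, DUSP6 and SPRY4, and in that fit 15.6% of all genes were lower.

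**Figure D2:**
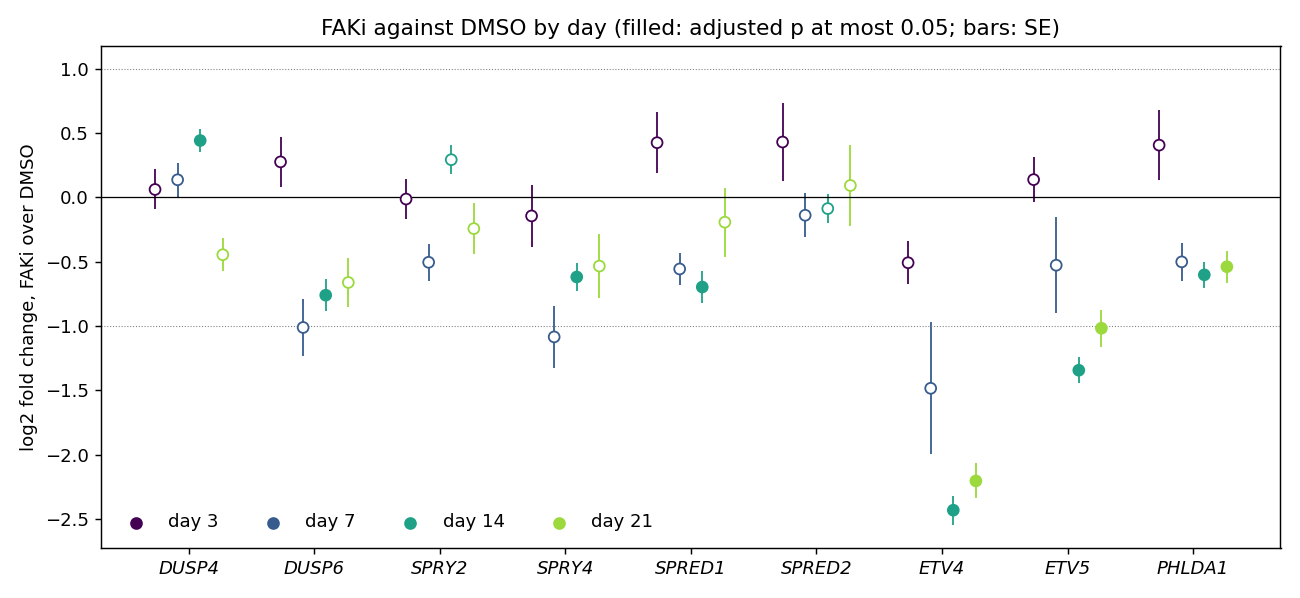
Log2 fold change of FAKi over DMSO for each feedback gene at days 3, 7, 14 and 21 from fits of 3 against 3 libraries, with bars for the SE, filled points for an adjusted p of at most 0.05 and dotted lines at -1 and 1. ETV4 lies below 0 on all 4 days and reaches -2.43 at day 14, while DUSP4 lies at 0.44 at day 14 and -0.45 at day 21.

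ETV4 and ETV5 encode closely related activators, and ETV4 showed the clearest separation of the set. At day 3 its DMSO libraries held 171, 125 and 161 CPM and its FAKi libraries 112, 111 and 95.4 CPM. At day 7 they held 123, 129 and 125 against 10.3, 71.6 and 53.6 CPM. The groups did not overlap on either day, and the lowest value at day 7 was in the FAKi library that resembles day 14. The log2 fold changes, -0.51 at day 3 (SE 0.17, adjusted p = 0.126) and -1.48 at day 7 (SE 0.51, adjusted p = 0.463), did not pass. Without FAKi day 7 replicate 1 the day 7 value was -1.01 (SE 0.13, adjusted p = 2.66e-04).

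At day 14 ETV4 stood at 69.6, 67.5 and 73.1 CPM in DMSO and at 13.1, 12.6 and 13.5 CPM in FAKi. At day 21 the DMSO libraries held 176, 187 and 145 CPM and the FAKi libraries 35.1, 36.7 and 34.9 CPM. Replicates were tight beside the gap on both days, and the level was higher at day 21 than at day 14 in both arms. The log2 fold change was -2.43 (SE 0.11, adjusted p = 5.43e-12) at day 14 and -2.20 (SE 0.14, adjusted p = 0.00135) at day 21.

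ETV5 did not differ at first. At day 3 it held 160, 147 and 108 CPM in DMSO and 154, 161 and 138 CPM in FAKi. At day 7 it held 170, 159 and 164 CPM in DMSO and 43.3, 154 and 147 CPM in FAKi, so that the groups did not overlap at day 7 and most of the size of the gap came from 1 library, the one that resembles day 14. The log2 fold change at day 7 was -0.53 (SE 0.37) with that library and -0.13 (SE 0.10) without it.

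From day 14 the ETV5 groups stood well apart, at 105, 119 and 109 CPM in DMSO against 41.6, 45.4 and 44.8 CPM in FAKi. The log2 fold change at day 14 was -1.34 (SE 0.10, adjusted p = 1.20e-08). At day 21 ETV5 held 107, 106 and 135 CPM in DMSO and 54.8, 53.7 and 57.5 CPM in FAKi, a log2 fold change of -1.02 (SE 0.14, adjusted p = 0.00747). Without DMSO day 21 replicate 3 it was -0.87 (SE 0.10, adjusted p = 5.19e-07), short of the fold threshold. Without FAKi day 21 replicate 2 or 3, ETV4 was the only member that passed at day 21.

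DUSP6 is the cytoplasmic phosphatase most specific for ERK, and it did not differ by test at day 3, with 51.2, 36.6 and 32.0 CPM in DMSO and 47.0, 52.6 and 44.3 CPM in FAKi. At day 7 it held 76.7, 63.5 and 65.2 CPM in DMSO against 21.7, 38.4 and 42.4 CPM in FAKi. The groups did not overlap at day 7, and the log2 fold change of -1.01 (SE 0.22) had an unadjusted p of 0.00135 and an adjusted p of 0.242. Without the library that resembles day 14 it was -0.77 (SE 0.13, adjusted p = 0.00206).

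At day 14 DUSP6 held 30.1, 32.8 and 30.4 CPM in DMSO and 19.8, 17.4 and 18.1 CPM in FAKi. It was lower with FAKi, with a log2 fold change of -0.76 (SE 0.12, adjusted p = 2.59e-04). At day 21 it held 26.3, 27.7 and 38.2 CPM against 16.6, 18.7 and 21.1 CPM. These groups did not overlap either, and the log2 fold change of -0.66 (SE 0.19) had an adjusted p of 0.0573. It passed with the replicate block, at -0.65 (SE 0.13, adjusted p = 0.00413).

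DUSP4 is an inducible nuclear phosphatase of the family. At day 14 it was higher with FAKi, at 286, 278 and 292 CPM against 207, 220 and 201 CPM in DMSO, a log2 fold change of 0.44 (SE 0.09, adjusted p = 0.00266). At day 21 it held 239, 240 and 233 CPM in FAKi and 327, 314 and 362 CPM in DMSO. The groups did not overlap on either day and lay in opposite orders. The day 21 log2 fold change was -0.45 (SE 0.13, adjusted p = 0.058), and with the replicate block -0.44 (SE 0.13, adjusted p = 0.0216). At days 3 and 7 the estimates were 0.06 and 0.14 and did not pass. The groups overlapped at day 3, and at day 7 they touched, with 271 to 291 CPM in DMSO and 291 to 340 CPM in FAKi.

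SPRY4 and SPRY2 encode Sprouty proteins, which blunt signalling from receptors to RAS. At day 7 the SPRY4 level was 170, 145 and 161 CPM in DMSO against 44.8, 93.2 and 87.8 CPM in FAKi. The groups did not overlap, and the log2 fold change was -1.08 (SE 0.24, adjusted p = 0.242), or -0.82 (SE 0.11, adjusted p = 5.05e-04) without the library that resembles day 14. At day 14 it held 75.1, 73.5 and 63.8 CPM in DMSO against 47.6, 43.0 and 48.2 CPM in FAKi, and was lower by test, at -0.62 (SE 0.11, adjusted p = 4.75e-04).

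At day 21 SPRY4 held 61.5, 58.8 and 110 CPM in DMSO and 44.5, 53.0 and 56.5 CPM in FAKi. Most of the gap came from DMSO replicate 3, which resembles day 3: the log2 fold change was -0.53 (SE 0.25, adjusted p = 0.179) with it, and -0.16 (SE 0.11, adjusted p = 0.253) without it. With the replicate block, which keeps that library, it was -0.48 (SE 0.15, adjusted p = 0.0373).

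SPRY2 did not pass the test on any day. Its estimates were -0.01 at day 3, -0.50 at day 7 (adjusted p = 0.36), 0.29 at day 14 (adjusted p = 0.102) and -0.24 at day 21 (adjusted p = 0.417). At day 7 it held 52.4 to 65 CPM in DMSO and 35.2 to 44.9 CPM in FAKi. At day 14 the order was the opposite, with 27.3 to 28.8 CPM in DMSO and 32.4 to 36.0 CPM in FAKi, and the groups overlapped on neither of those days.

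SPRED1 and SPRED2 encode Sprouty-related proteins that bring the RAS inactivator neurofibromin to the membrane, and SPRED1 moved more. It held 33.9 to 36.6 CPM in DMSO and 23.1 to 26.0 CPM in FAKi at day 7, a log2 fold change of -0.56 (SE 0.13, adjusted p = 0.246). At day 14 it held 34.1, 41.3 and 37.3 CPM in DMSO and 21.4, 25.3 and 23.2 CPM in FAKi. It was lower with FAKi at that day, at -0.70 (SE 0.12, adjusted p = 5.52e-04). At day 21 both arms were low, with 12.0 to 22.8 CPM in DMSO and 11.1 to 15.2 CPM in FAKi, and the estimate was -0.19 (SE 0.27, adjusted p = 0.644).

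SPRED2 had estimates between -0.14 and 0.43 on the 4 days and did not pass on any. Its spread at day 3 and day 21 lay with the libraries that stand apart. DMSO held 80.9, 47.8 and 28.8 CPM at day 3, with the first of these in the library that resembles day 0, and 18.9, 17.2 and 39.6 CPM at day 21, with the last in the library that resembles day 3. FAKi held 65.7 to 73.7 CPM at day 3 and 22.9 to 31.1 CPM at day 21. Without the library concerned, SPRED2 was higher with FAKi, by 0.90 at day 3 (SE 0.19, adjusted p = 0.00348) and by 0.60 at day 21 (SE 0.14, adjusted p = 0.00143). A large share of all genes passed in both of these fits, so these calls are not particular to SPRED2.

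PHLDA1 was lower with FAKi on the late days by a like amount each time. At day 14 it held 249, 253 and 250 CPM in DMSO and 183, 170 and 144 CPM in FAKi, a log2 fold change of -0.60 (SE 0.10, adjusted p = 3.91e-04). At day 21 it held 192, 199 and 219 CPM against 137, 133 and 136 CPM, a change of -0.54 (SE 0.12, adjusted p = 0.0321). With 1 library left out, the day 21 call held only without DMSO replicate 3, and the adjusted p lay between 0.0853 and 0.146 otherwise. At day 7 the estimate was -0.50 (adjusted p = 0.371), with 286 to 304 CPM in DMSO and 174 to 239 CPM in FAKi, which did not overlap.

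At day 3 the PHLDA1 estimate was above 0, at 0.41 (SE 0.27, adjusted p = 0.378). Its DMSO libraries held 412, 206 and 204 CPM, and its FAKi libraries 314, 379 and 386 CPM. Without DMSO day 3 replicate 1, the library at 412 CPM, PHLDA1 was higher with FAKi by 0.84 (SE 0.15, adjusted p = 0.00102), and so were DUSP6 by 0.51 (adjusted p = 0.0211), SPRED1 by 0.75 (adjusted p = 0.0047) and SPRED2. With that library left out 7109 genes passed at day 3, against 0 with it, and 15.8% of those tested were higher.

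Whether the effect of FAKi differed among the days was tested in 1 fit of the 24 libraries of days 3 to 21. By that test 6 of 9 members differed, where 10.3% of 27897 genes did: DUSP4 (adjusted p = 0.00906), DUSP6 (0.0157), ETV4 (0.0228), ETV5 (0.0333), PHLDA1 (0.0347) and SPRED1 (0.0498). The call of SPRED1 was lost with the replicate block (adjusted p = 0.074) and with thinning (0.0657), and with 1 library left out its adjusted p lay between 0.00323 and 0.114. SPRY2, SPRY4 and SPRED2 did not pass, with adjusted p of 0.0727, 0.246 and 0.649. Leaving out any 1 library gave between 1 and 8 members, the lowest without FAKi day 3 replicate 2, and all 9 passed without the 3 libraries that stand apart, where 38.4% of all genes did. DUSP4 passed in each of these fits.

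Within each family the balance between related genes moved too. The log2 ratio of ETV4 to ETV5 counts was lower with FAKi on every day, by 1.02 on average (exact permutation test within days, two-sided, p = 1.25e-05, the smallest it can give, adjusted over 4 pairs p = 5e-05). At day 21 it was 0.72, 0.83 and 0.11 in DMSO and -0.64, -0.55 and -0.72 in FAKi, and at day 14 it was -0.60, -0.81 and -0.58 in DMSO and -1.67, -1.85 and -1.72 in FAKi. On each of the 4 days all FAKi values were below all DMSO values.

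The ratio of DUSP6 to DUSP4 fell by 0.59 on average (exact permutation p = 0.00324, adjusted p = 0.00324), with day differences of 0.24, -1.19, -1.20 and -0.20. The ratio of SPRY2 to SPRY4 was higher with FAKi by 0.47 on average (exact permutation p = 6.25e-04, adjusted p = 0.00125), with 0.91 at day 14. The ratio of SPRED1 to SPRED2 fell by 0.35 on average (exact permutation p = 9.75e-04, adjusted p = 0.0013), with -0.61 at day 14. All 4 passed also without the 3 libraries that stand apart, with mean differences of -1.02, -0.47, 0.34 and -0.44 in the order given. A ratio within a library shows that 2 genes changed unequally, not that either was stable.

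**Figure D3:**
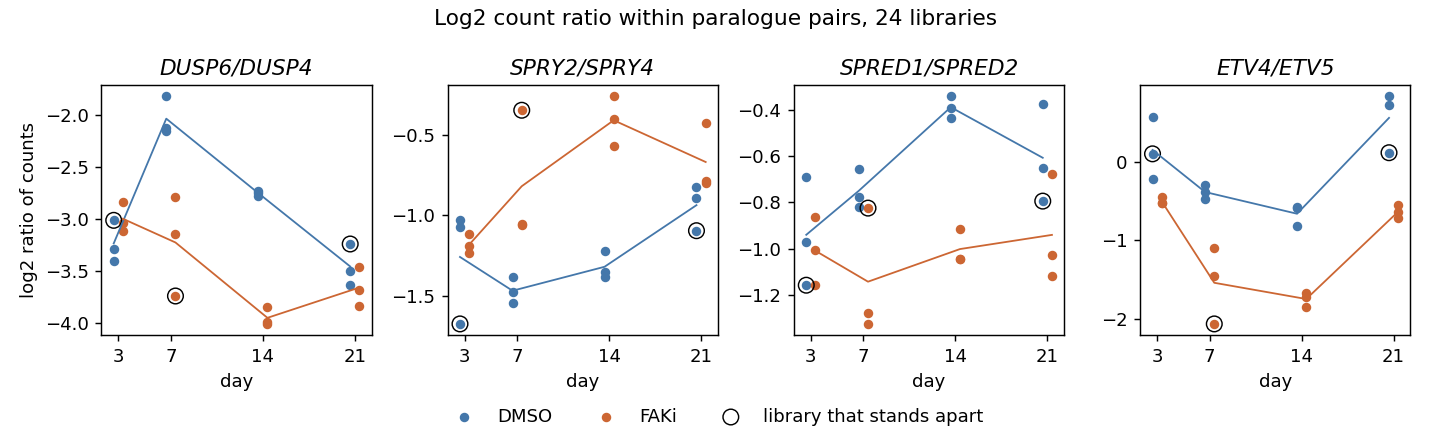
Log2 ratio of counts within 4 pairs of related genes in each library of days 3 to 21, with blue points for DMSO, orange points for FAKi, lines through group means and rings around the libraries that stand apart. The ETV4 to ETV5 ratio lies lower in FAKi on all 4 days, while the DUSP6 to DUSP4 ratio separates at days 7 and 14.

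The other genes of the MAPK activity score moved in both directions. CCND1, which encodes cyclin D1, was lower over the 4 days, with a log2 fold change of -0.58 (SE 0.07, adjusted p = 9.46e-06), and held 132 to 143 CPM in FAKi against 272 to 282 CPM in DMSO at day 21. EPHA2, an ephrin receptor, was lower by 0.68 on that scale (log2 fold change -0.68, SE 0.10, adjusted p = 5.71e-05). EPHA4, another ephrin receptor, rose by 1.59 (SE 0.13, adjusted p = 1.51e-08), and held 5.51 to 9.60 CPM in FAKi against 1.19 to 1.90 CPM in DMSO at day 21. The effect on CCND1 also differed among days (adjusted p = 0.0345), and those on EPHA2 and EPHA4 did not pass that test.

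Among related genes, 4 of 8 other MAPK phosphatases were lower over the 4 days and 1 was higher, where 8.7% of all genes were lower and 6.96% higher, with log2 fold changes from -0.62 for DUSP5 to 0.21 for DUSP16. On single days, DUSP8 and DUSP10 were lower at day 14, and DUSP10, a phosphatase of JNK and p38, passed the fold threshold, at -1.55 (SE 0.39, adjusted p = 0.0114), from a low level of 2.23 to 3.85 CPM in DMSO to 0.752 to 1.18 CPM in FAKi. Of SPRY1, SPRY3 and SPRED3, 0 passed on any day or over the days, by edgeR, with 1 at an unadjusted p under 0.05 over the days. ETV1, the remaining PEA3 factor, was lower at day 14 at -0.86 (adjusted p = 4.51e-05) and at no other day. PHLDA2 was lower at day 21, at -2.70 (SE 0.52, adjusted p = 0.019), with 0.143 to 0.559 CPM in FAKi against 1.44 to 2.95 CPM in DMSO.

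Of 18 genes of the cascade from SOS and RAS to ERK, 2 were lower over the 4 days, MAP2K2 at -0.37 and RASGRP3 at -0.30, and none was higher, a share near that of all genes lower (8.7%). RASGRP3 encodes the exchange factor that links protein kinase C to RAS in this tumour type. Of 8 other negative regulators, RASA1 and LZTR1 were higher, at 0.31 and 0.32, and none was lower, where 6.96% of all genes were higher and 8.7% lower. Of 4 repressors, CIC, ATXN1, ATXN1L and ERF, ATXN1L was higher over the days at 0.39 (adjusted p = 0.0348) and CIC at day 14 at 0.48 (adjusted p = 0.0174).

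Of 13 other ERK target genes, which include the 3 score genes, ETV1 and DUSP5, 12 had enough counts to be tested over the days. Of these 5 were lower, against 8.7% of all genes, and 1 was higher, EPHA4, against 6.96%, and the median log2 fold change was -0.41. HMGA2, a chromatin protein of proliferating cells, was lower at day 14, at -1.19 (SE 0.13, adjusted p = 2.15e-06), and at day 21, at -1.83 (SE 0.20, adjusted p = 0.00423). FOSL1, an AP-1 subunit, was lower at day 21 at -1.68 (SE 0.32, adjusted p = 0.0195). EGR1, an immediate early gene, moved the other way at day 14, at 2.41 (SE 0.21, adjusted p = 9.46e-08), with 13.1 to 22.7 CPM in FAKi and 3.02 to 3.95 CPM in DMSO. LIF, a cytokine, was lower over the days at -1.42 (SE 0.39, adjusted p = 0.0156), at under 2 CPM in every library.

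The DMSO libraries were compared with day 0 to ask how far the members moved without the drug. Within the DMSO arm every member moved by test on at least 1 day. These comparisons share the day 0 libraries with each other and the DMSO libraries with the FAKi comparisons, so they are not independent of them.

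At day 3 no member passed and 0 of 22728 genes did (0%), with 2242 at an unadjusted p under 0.05, and DESeq2 called 0 members. Without DMSO day 3 replicate 1, 5 members were lower, where 7.73% of all genes were in that fit. At day 7 DUSP4 was lower at -0.31 (adjusted p = 0.00452), where 2.46% of genes were lower, and DUSP6 was higher at 0.46 (adjusted p = 4.32e-04), where 2.47% were higher.

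At day 14 all 9 members passed, 8 of them lower, where 14% of 22669 genes were, and SPRED1 higher at 0.30 (adjusted p = 0.0464), where 14.3% were. The call of SPRED1 was lost with no count filter (adjusted p = 0.0507), with the replicate block (0.0615), with thinning (0.0889) and in the single fit of all libraries (0.316). With 1 library left out it held only without DMSO day 14 replicate 1. Without DMSO day 0 replicate 1 or 3, DUSP4, DUSP6, SPRY2, SPRY4, ETV4 and ETV5 passed and SPRED1, SPRED2 and PHLDA1 did not. SPRY4 at -1.11 (SE 0.10, adjusted p = 2.27e-06) and SPRY2 at -1.06 (SE 0.09, adjusted p = 2.27e-06) passed the fold threshold, against 2.62% of all genes. ETV4 was lower by test at -0.89 (SE 0.09, adjusted p = 6.11e-06), DUSP4 at -0.72 and DUSP6 at -0.67. ETV5, SPRED2 and PHLDA1 were lower by smaller amounts, at -0.33, -0.34 and -0.27.

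At day 21, 6 members were lower, where 20.7% of 22259 genes were, and ETV4 was higher at 0.38 (adjusted p = 0.0486), where 24.1% were. The call of ETV4 was lost with RLE or upper quartile scaling (0.0562 and 0.0569), no count filter (0.0595), the replicate block (0.0823), thinning (0.052) and the single fit of all libraries (0.355), all as adjusted p, and with 1 library left out it held only without DMSO day 21 replicate 3. SPRED2 at -1.31 (SE 0.30, adjusted p = 0.00914) passed the fold threshold, against 10% of all genes. SPRY4 followed at -1.0, SPRED1 at -0.94, DUSP6 at -0.69, SPRY2 at -0.59 and PHLDA1 at -0.57. With 1 library left out, SPRY2 passed only without DMSO day 21 replicate 3 (adjusted p of 0.0755 to 0.111 otherwise). SPRED1 passed only without that library or DMSO day 0 replicate 2 (0.0505 to 0.0606 otherwise). DUSP6 did not pass without replicate 1 of day 0 (0.0609) or of day 21 (0.0521), nor SPRY4 without day 0 replicate 3 (0.052). SPRED2 and PHLDA1 passed in each of these fits. DUSP4 was near its day 0 level, at -0.05 (SE 0.13, adjusted p = 0.764), and ETV5 at -0.28 did not pass. Without DMSO day 21 replicate 3 all members but DUSP4 passed, in a fit where 69.7% of all genes did, and SPRY4, SPRED1 and SPRED2 passed the fold threshold, at -1.35, -1.30 and -1.80.

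**Figure D4:**
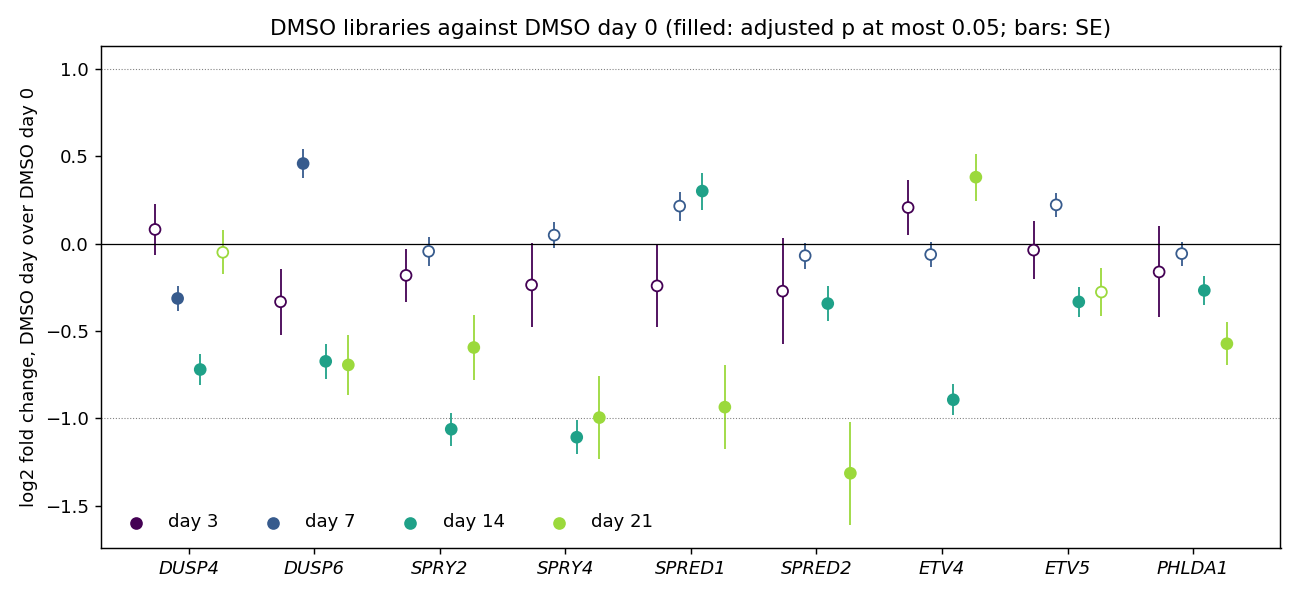
Log2 fold change of DMSO libraries at days 3, 7, 14 and 21 over DMSO at day 0 for each feedback gene, with bars for the SE, filled points for an adjusted p of at most 0.05 and dotted lines at -1 and 1. At day 14 all 9 are filled and 8 lie below 0, and at day 21 SPRED2 is the lowest at -1.31.

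Over all 27 libraries the members varied together to different degrees, as a description in which libraries share groups, days and depth. Pearson r of log2 CPM was highest for DUSP6 with SPRY4, at 0.947, followed by DUSP6 with ETV5 at 0.912, SPRED1 with SPRED2 at 0.895 and SPRY2 with SPRY4 at 0.881. It was lowest for SPRED2 with ETV4 at 0.105 and for DUSP4 with SPRED1 at 0.108. DUSP6 and DUSP4, both ERK phosphatases, had r of 0.437. Pearson r with the log2 total count of the library lay between -0.37 for SPRY2 and -0.03 for SPRED1.

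**Figure D5:**
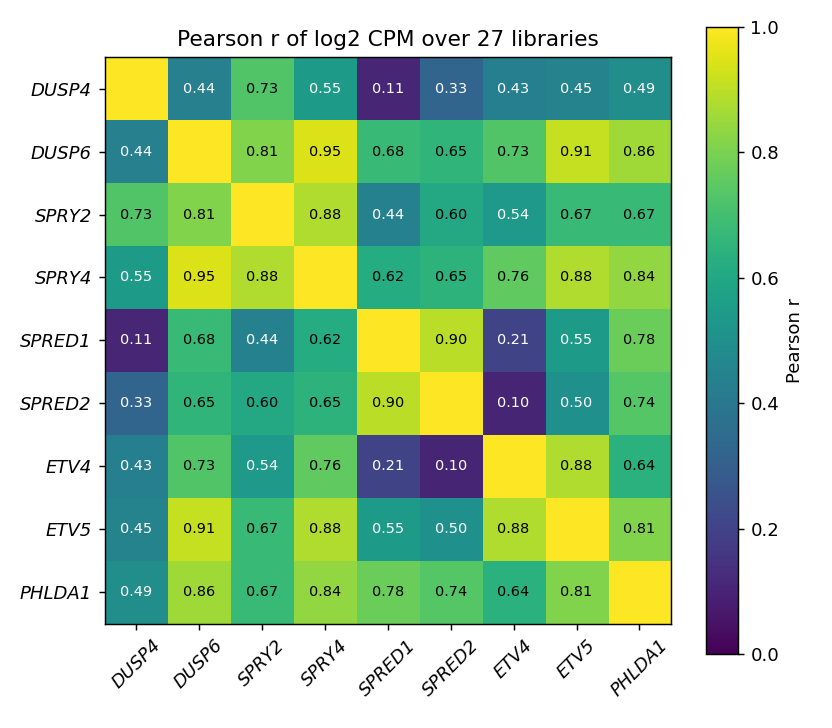
Pearson r of log2 CPM between each pair of feedback genes over the 27 libraries, on a colour scale from 0 to 1. DUSP6, SPRY4 and ETV5 form the brightest block, at 0.88 to 0.947, and the rows of DUSP4 and of SPRED2 with ETV4 are the darkest.

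Among genes outside the set with a mean of at least 1 CPM, those nearest to DUSP6 by Pearson r over the 27 libraries were GSPT1 at 0.935, ZNF697 at 0.934 and BMF, which encodes a pro-apoptotic BCL2 family protein, at 0.933. The nearest was MATN2 for DUSP4 at 0.939, UNC13B for SPRY2 at 0.942, ADD2 for SPRY4 at 0.952 and ZC3H13 for SPRED1 at 0.966. It was PROSER1 for SPRED2 at 0.987, EMCN for ETV4 at 0.967, NARS1 for ETV5 at 0.940 and ZFP36L1 for PHLDA1 at 0.912. By Spearman's rho 3 of these 9 were also the nearest, and over the 9 group means 2 were.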

How the data were processed

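mRNA libraries were made from 92.1 cells with a stranded kit. The submitters' processing notes name Trim Galore, FastQC 0.11.8, STAR 2.5.3a, HOMER and the build hg38. Per the file headers, the deposited values are raw counts made by the authors with HOMER analyzeRepeats.pl, as exon reads of 1 GENCODE 39 transcript per gene, with no strand option. The transcript length, also deposited, was used as listed. All columns were matched to samples by label, and 0 were left over. For DMSO day 21 replicate 3 the column name has an extra digit before the 21, and the sample's title was followed.

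Counts were tested with edgeR 4.0.16 in R 4.3.3 (TMM scaling, quasi-likelihood F test, genes under 20 total counts removed, Benjamini-Hochberg over all genes tested). Each day was fitted on its own 6 libraries, and the mean effect and the difference among days on 24. A gene passed where the adjusted p did not exceed 0.05, and the study's fold threshold was an absolute log2 fold change over 1. Levels of single genes are CPM scaled by TMM over 27 libraries, marker sums are CPM without TMM, and ratios used a prior count of 2. DESeq2, the study's tool, was run here in version 1.42.0 as an alternative, beside other scalings, filters, thinning, a replicate block and leaving libraries out. Leaving out the 3 libraries that stand apart was chosen after seeing the data. The fits were tested on simulated data with known changes.

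The members and the lists were chosen with earlier results of these data known. Named genes were the members, the 3 other score genes, list genes past both thresholds (others as examples chosen after seeing their values) and, per member, the gene with the highest Pearson r (3 for DUSP6). The rule for treating same-numbered libraries as possibly paired was r over 0.1 for every pair's deviations, which held at day 21. It was applied to these same data and does not show that the numbers mark pairs. Depth was 12161994 to 43651551 counts per library.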

Additional observations from a re-analysis of the deposited data

Results flagged for a closer look

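For 6 members the effect of FAKi differed among the 4 days by a test of that difference (edgeR quasi-likelihood F test over 24 libraries, adjusted over 27897 genes). DUSP4 (adjusted p = 0.00906) was higher with FAKi at day 14, at 0.44 on the log2 scale, and lay at -0.45 at day 21. DUSP6 (adjusted p = 0.0157) went from 0.28 at day 3 to -1.01, -0.76 and -0.66 on the later days. ETV4 (adjusted p = 0.0228) went from -0.51 to -1.48, -2.43 and -2.20, and ETV5 (adjusted p = 0.0333) from 0.14 to -0.53, -1.34 and -1.02. PHLDA1 (adjusted p = 0.0347) lay at 0.41 at day 3 and between -0.60 and -0.50 afterwards. SPRED1 (adjusted p = 0.0498, and 0.074 with the replicate block) lay at 0.43, -0.56, -0.70 and -0.19. Groups of 3 are too small for a test of single outlying libraries.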

How the results depend on the processing

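At day 14 all settings that left out a library gave 7 members, and the other settings gave 7 except the single fit of all 27 libraries, which gave 6, without SPRY4. The mean effect over days gave 5 or 6 members under every other scaling, filter, test or thinning, and 4 to 6 with 1 library left out. At days 3, 7 and 14 same-numbered libraries did not meet the rule for possible pairing (r from -0.144 to 0.107). The replicate block gave 0, 0 and 7 members on these days. With the block the mean effect gave 5 members and the difference among days 5, without SPRED1 (adjusted p = 0.074), and ETV4 no longer passed in DMSO day 21 against day 0 (adjusted p = 0.0823). At day 7, 3 members passed with no count filter, with DESeq2 and in the single fit of all libraries, of which 3, 2 and 3 also passed the fold threshold. At day 21, 6 passed with the replicate block, 5 with DESeq2 and 5 in the single fit, and upper quartile scaling left 1 past the fold threshold. In the DMSO course the single fit gave 0 members at day 7 and 5 at day 14, and at day 21 RLE and upper quartile scaling, the replicate block, thinning and DESeq2 each put 2 past the fold threshold. These counts are given without the share of all genes that passed in each setting, and the cause of these moves was not tested.

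With 1 library left out, the members that passed ranged from 0 to 4 at day 3 and at day 7, from 1 to 6 at day 21, from 1 to 8 for the difference among days, from 0 to 5 for DMSO day 3 against day 0 and from 3 to 8 for DMSO day 21 against day 0. Those past the fold threshold ranged from 0 to 1 at day 7, from 1 to 2 at day 21 and from 1 to 3 for DMSO day 21. The highest count at day 3 came without DMSO replicate 1, at day 7 without FAKi replicate 1 and at day 21 without DMSO replicate 3. More of all genes passed in these fits too, as given above for days 3 and 7, so the counts do not describe the members alone. The log2 ratios of the 4 gene pairs kept their direction and passed in all settings run.

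Of 1296 values of single members under other settings, 20 turned direction, all for comparisons in which the member did not pass as reported. Thinning turned SPRY2 at day 3 to 0.0017. The others came from leaving out 1 library, with these log2 ranges. At day 3 they were -0.13 to 0.084 for SPRY2, -0.35 to 0.22 for SPRY4, -0.00065 to 0.16 for DUSP4 and -0.014 to 0.27 for ETV5. SPRED2 ranged from -0.27 to 0.031 at day 7, from -0.12 to 0.60 at day 21 and from -0.0050 to 0.20 in the mean effect. At day 21 SPRY2 ranged from -0.37 to 0.020 and SPRED1 from -0.38 to 0.18. For DMSO day 3 against day 0 they were -0.0061 to 0.14 for DUSP4, -0.73 to 0.022 for SPRED2, -0.15 to 0.11 for ETV5 and -0.58 to 0.012 for PHLDA1. For DMSO day 7 they were -0.0083 to 0.11 for SPRY4 and -0.14 to 0.013 for SPRY2. Where 2 libraries were left in a group, the fit takes their spread as like that of the others. Without TMM scaling, 13 of 81 group levels moved by over 1 SD, by at most 10.9%. Members with few counts, ETV4 in FAKi libraries among them, had at least 208 counts.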
